A study of Mus musculus with 7 samples.

Results

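The transcriptome of mouse endometrial epithelium under tamoxifen plus alpelisib was compared with that under estradiol. The comparison took the 2 libraries of tamoxifen plus alpelisib and the 2 libraries of estradiol, which are 4 of the 7 libraries of the study, and all genes of the deposited table. All mice were C57BL/6 females whose ovaries had been removed at 6 to 7 weeks of age, so no group had ovarian hormone and estradiol was the only estrogen given. Estradiol came from a pellet of 0.01 mg that releases over 60 days. The combination was tamoxifen in peanut oil under the skin at 0.5 mg per day with alpelisib by mouth at 30 mg/kg per day. Both lasted 28 days, after which the uterine horns were taken, and the RNA is labelled as that of epithelial endometrial cells. The combination was 1 of 3 randomized arms of 6 mice each, whereas the 2 estradiol mice stood outside the randomization. The other 3 libraries are 2 of tamoxifen alone, at the same dose, and 1 of vehicle. The sources used here label libraries by mouse but do not say whether each holds the RNA of 1 mouse, and p-values measure the spread between libraries only.

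Estradiol acts in the uterus through the estrogen receptor alpha, encoded by Esr1, and drives the luminal epithelium to divide, swell and secrete. Tamoxifen binds the same receptor and blocks it in the breast, but it is a partial agonist in the uterus, where it is known to promote endometrial growth. Alpelisib inhibits the alpha isoform of the catalytic subunit of phosphoinositide 3-kinase (PI3K), encoded by Pik3ca. PI3K signals through AKT to the growth kinase mTOR and keeps FOXO transcription factors out of the nucleus. The comparison therefore sets an epithelium under a partial agonist with PI3K inhibited against one under the full agonist, and it cannot by itself separate the agents. For that reason the values with tamoxifen alone are given beside those of the combination.

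Expression is given in FPKM, which divides a gene's fragments by transcript length and library size, with sums per library between 264322 and 403562. The steps between low values imply 15.9 to 18.3 M fragments per library. The library estradiol 2 stood apart: it had 9801 genes at 0 against 8040 in estradiol 1, only 55 genes at the lowest step against 293 to 349 in the other 6 libraries, and 2276 FPKM of ribosomal RNA precursor (Rn45s) against 764 in estradiol 1 and 189 to 530.4 elsewhere. Epithelial adhesion and keratin genes were expressed in all 4 libraries. The epithelial adhesion gene Epcam had 235 and 202 FPKM with estradiol and 268 and 288 with the combination, and the keratin gene Krt8 had 839 and 769 against 1551 and 1720. The 11 markers of luminal epithelium were split, with 4 higher, 3 lower and 4 not called with the combination. Those lower were Wnt7a (log2 fold change -3.08), Lpar3 (-2.39) and Msx1 (-2.02). Markers of other cell types were present at lower levels. The summed level of the listed stromal markers was 252 and 246 FPKM with estradiol and 183 and 189 with the combination, and that of endothelial markers was 13.5 and 11.5 against 2.59 and 2.94. Smooth muscle markers went the other way, with sums of 15.97 and 13.41 against 24.15 and 25.74. In bulk RNA, fewer cells of a type and less RNA per cell cannot be told apart.

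A majority of genes differed between tamoxifen plus alpelisib and estradiol. Of 12314 genes tested, 6548 (53.2%) passed an adjusted p of 0.05 in limma with Benjamini-Hochberg adjustment. Of all tested genes 15.7% were higher with the combination (1935) and 37.5% were lower (4613), and 2954 differed at least 2-fold, 1047 up and 1907 down. In 9785 genes (79.5%) both libraries of one group lay above both of the other. That share depends on the shift in scale between the groups, given next, as well as on how close replicates were. Between replicates the median gene differed by 0.25 on the log2 scale with estradiol and by 0.10 with the combination. The balance of up and down depends on scaling. Over all genes the median log2 fold change was -0.26 on FPKM and 0.01 after median-of-ratios scaling, which gave 3360 higher and 3027 lower, and quantile normalization gave 2857 and 3240. A total of 4552 genes passed with the same sign under all 3 scalings, 1888 higher and 2664 lower. Without estradiol 2 the counts were 1486 and 4331. Without either library of the combination, 3871 or 3936 genes passed. A comparison of 2 with 2 libraries cannot give an exact permutation p under 0.333, so each test leans on the spread shared across genes.

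**Figure D1:**
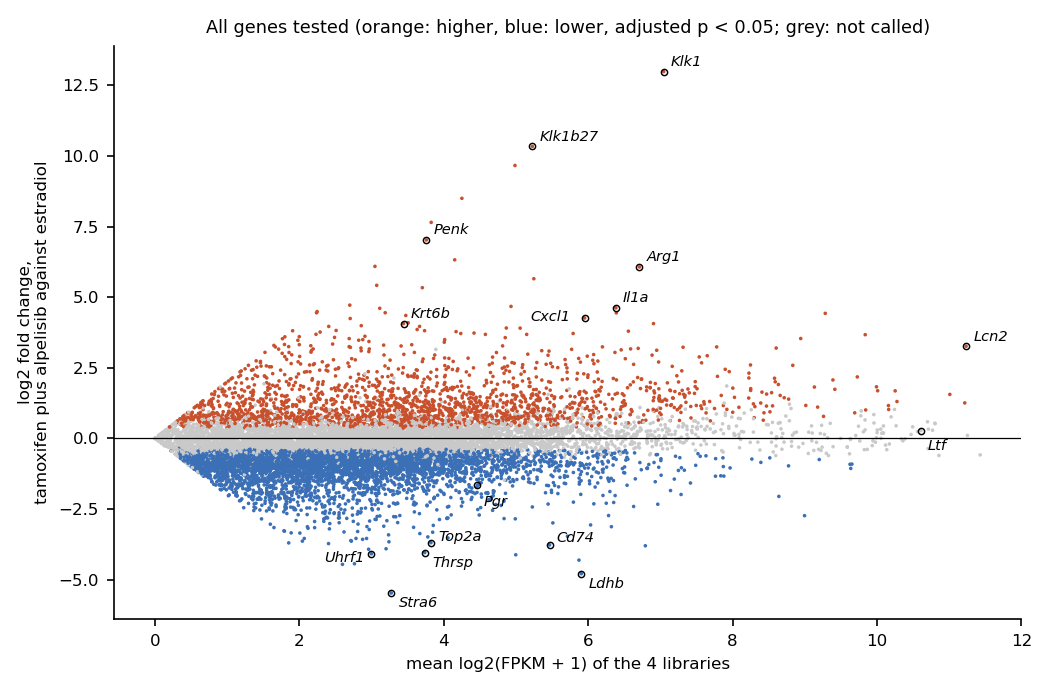
Each point is 1 of the 12314 genes tested, with its mean log2(FPKM + 1) over the 4 libraries on the x axis and its log2 fold change, tamoxifen plus alpelisib against estradiol, on the y axis. Orange points (1935) passed the adjusted p of 0.05 as higher, blue points (4613) as lower, and grey points did not pass; Klk1 lies highest at 12.99, and Stra6 is the lowest labelled gene at -5.48.

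Tamoxifen alone against estradiol called 5977 genes (48.5%; 1519 higher, 4458 lower), with the same median of -0.26. That comparison shares its estradiol libraries with the one described here, so the values are set side by side only. The direct test between tamoxifen plus alpelisib and tamoxifen alone called 1445 genes (11.7%; 853 higher, 592 lower) with a median of -0.03. It fell to between 14 and 692 genes when any 1 of its 4 libraries was left out, the lowest counts being those without a combination library (18 and 14). A difference of the combination from tamoxifen alone is given below for each gene where it bears on the result, and it carries that limit throughout. All log2 fold changes are on the scale of log2(FPKM + 1), given ± SE, and understate the changes of low genes.

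The genes most raised over estradiol encoded secreted serine proteases. Tissue kallikrein Klk1 had 0.736 and 0.236 FPKM in the estradiol libraries and 11343 and 12522 in the combination libraries, with 9358 and 17316 under tamoxifen alone. Its log2 fold change was 12.99 ± 0.35 (adjusted p = 2.2e-05). All 8 tested kallikreins of the 14 listed were higher than with estradiol, with no overlap of the groups, beside 79.5% of all genes without overlap. The 14 summed to 1.31 and 0.236 FPKM with estradiol, so the tested members reached 1 FPKM only in other libraries. A lower call was hardly possible for them, and the count is a description only. Klk1b27 had 0.0816 and 0 FPKM with estradiol, 2285 and 2814 with tamoxifen alone and 1307 and 1388 with the combination, and it was the only tested kallikrein that passed against tamoxifen alone, at -0.91 (adjusted p = 0.024). Reads of the Klk1b copies may be shared among them, so single members are uncertain. Prss29, a tryptase-like protease of uterine glands, was listed at 0 in both estradiol libraries and had 198 and 277 FPKM with tamoxifen and 191 and 209 with the combination. Kap, the kidney androgen-regulated protein, was likewise listed at 0 with estradiol and had 64.1 and 70.5 FPKM with the combination.

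Beyond proteases, the highest genes had diverse roles. Arginase Arg1, which splits arginine into ornithine and urea, had 14.7 and 9.38 FPKM with estradiol and 851 and 864 with the combination (log2 6.07 ± 0.24, adjusted p = 5.7e-05). With tamoxifen alone it had 566 and 715, so all 4 drug libraries lay far above estradiol. Proenkephalin Penk, the precursor of opioid peptides, was at 0.404 and 0 FPKM with estradiol and 155 and 152 with the combination, and the fatty acid binding protein Fabp5 at 8.07 and 2.16 against 263 and 274. The decoy receptor for interleukin 1, Il1r2, rose by 5.34 ± 0.25, the transcriptional coregulator Lmo1 by 4.72 ± 0.18 and the AP-1 repressor Jdp2 by 4.67 ± 0.27. With tamoxifen alone Penk had 236 and 253 FPKM, Fabp5 387 and 451 and Il1r2 87.8 and 94.9, all far above estradiol. A pair of genes of this group was low or intermediate with tamoxifen. Sprr2e, a cornified envelope precursor, had 1.57 and 0.535 FPKM with estradiol, 4.07 and 18.5 with tamoxifen and 151 and 165 with the combination. Interleukin 1 alpha, Il1a, had 17.4 and 14.4 with estradiol, 117 and 141 with tamoxifen and 398 and 429 with the combination. Both were higher with the combination than with tamoxifen alone, by 3.998 (adjusted p = 0.013) and 1.68 (adjusted p = 0.0053).

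**Figure D2:**
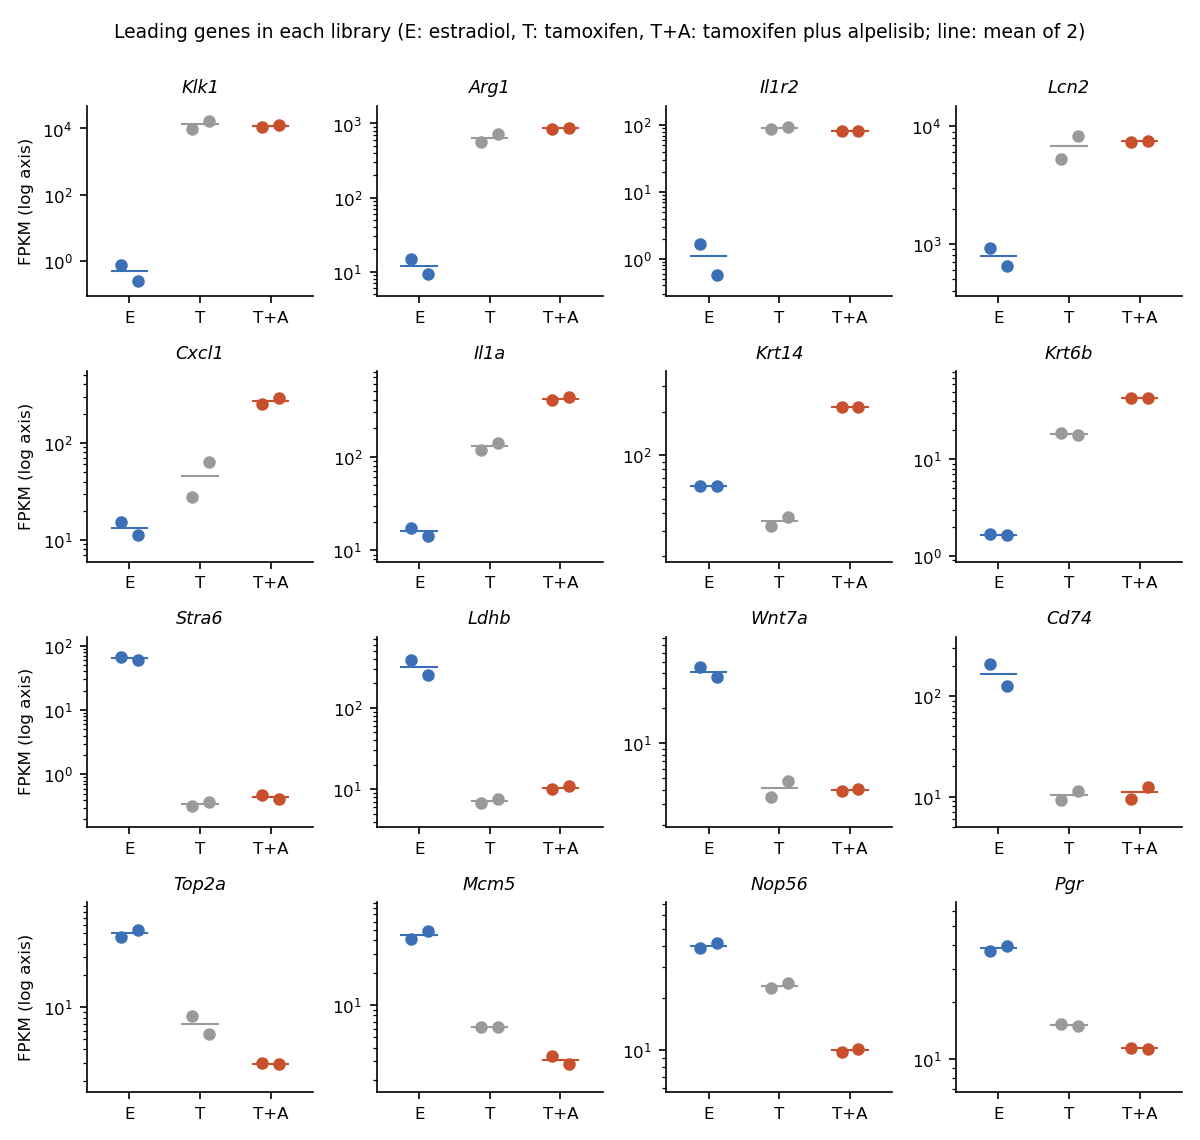
FPKM on a log axis for 16 genes in each library of estradiol (E), tamoxifen (T) and tamoxifen plus alpelisib (T+A); points are libraries and the line is the mean of 2. Klk1, Arg1 and Il1r2 lay far above estradiol in both drug groups, Cxcl1, Il1a and Krt6b stepped up again with alpelisib, and Top2a, Mcm5 and Nop56 stepped down again.

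The genes most reduced against estradiol covered retinoid uptake, lactate metabolism and antigen presentation. Stra6, the cell surface receptor that takes up retinol, had 66.2 and 60.8 FPKM with estradiol and 0.475 and 0.419 with the combination (log2 -5.48 ± 0.12, adjusted p = 1.4e-05), with 0.319 and 0.368 under tamoxifen alone. Lactate dehydrogenase B, Ldhb, had 384 and 257 against 9.93 and 10.8, a log2 fold change of -4.79 ± 0.21, and the mitochondrial carrier Slc25a48 had 249 and 271 against 11.2 and 13.2. Thrsp, a regulator of lipogenesis, had 60.4 and 46.7 against 2.05 and 2.53. The other large decreases included the matrix protein Vwa2 (-4.46), the adaptor subunit Ap3b2 (-4.44), the interleukin 17 receptor subunit Il17rb (-3.93), Tnfaip2 (-3.91), the interferon-induced membrane protein Ifitm1 (-3.80 ± 0.36) and Irg1, which makes itaconate (-3.73). The RNA subunit Rmrp had 51.5 and 337 FPKM in the estradiol libraries and 9.17 and 4.75 with the combination, and lost its call when the second combination library was left out. Its higher estradiol value stood in the library with the higher Rn45s, and the part of that in the result was not tested.

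Genes of the uterine estrogen response were more often higher than lower with the combination. Of 34 such genes 31 had no overlap of the groups, beside 79.5% of all genes. Their median log2 fold change was 0.70 beside -0.26 over all genes. With the combination 17 were higher and 6 lower than with estradiol, beside 15.7% and 37.5% of all genes. Without estradiol 2 the counts were the same. Among 10 secreted proteins 6 were higher and none lower. Lipocalin 2 (Lcn2), an iron-sequestering antimicrobial protein, had 927 and 652 FPKM with estradiol and 7391 and 7545 with the combination (log2 3.26 ± 0.37, adjusted p = 0.00087). The chloride channel regulator Clca1 had 143 and 144 against 1683 and 1670, complement C3 448 and 652 against 1944 and 1895, and Sprr2f 351 and 186 against 3011 and 3544. In the single vehicle library Lcn2 had 229.5, Clca1 66.7, C3 89.35 and Sprr2f 101.3 FPKM, below both estradiol libraries. Lactotransferrin (Ltf), the standard estrogen-induced secretion of the mouse uterus, was high in both groups: 1520 and 1324 FPKM with estradiol, 1733 and 1701 with the combination and 83.1 with vehicle. Its difference of 0.27 ± 0.25 did not pass (adjusted p = 0.38), and its sign turned under quantile normalization, at -0.30.

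Of 9 enzymes and channels of the same list 6 were higher and 2 lower. The water channel Aqp5 had 7.83 and 5.42 FPKM with estradiol and 110.0 and 114 with the combination (log2 3.91 ± 0.22, adjusted p = 0.00011). The peptidyl arginine deiminases Padi1, Padi2 and Padi4 rose by 2.68, 3.12 and 0.91. The receptor tyrosine kinase Ret had 0.405 and 0.592 FPKM with estradiol, 51.7 and 50.9 with tamoxifen and 27.9 and 26.8 with the combination, which was 0.88 lower than tamoxifen on the log2 scale (adjusted p = 0.011). Greb1, a receptor coregulator and direct estrogen target, had 11.6 and 16.1 against 29.5 and 32.4 (log2 1.12 ± 0.19, adjusted p = 0.0036). In the single vehicle library Aqp5 had 24.32, Ret 4.219 and Padi1 92.28 FPKM, above both estradiol libraries. Padi2 (6.958), Padi4 (4.083) and Greb1 (11.1) lay below both there. The comparison with vehicle was not tested.

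The members that were lower included both steroid receptor genes and growth regulators. The progesterone receptor gene Pgr had 37.2 and 39.4 FPKM with estradiol, 15.3 and 14.9 with tamoxifen and 11.5 and 11.4 with the combination (log2 -1.66 ± 0.12, adjusted p = 0.00023). Its difference from tamoxifen alone was -0.37 (adjusted p = 0.10). The estrogen receptor gene Esr1 had 31.5 and 53.5 against 21.2 and 22.7 (-0.88 ± 0.25, adjusted p = 0.025), and this call was lost under median-of-ratios scaling at -0.52. The Esr1 call was also lost without either combination library and with no filter on low values. Cyclin D1 (Ccnd1) had 21.5 and 21.9 against 9.27 and 11.04 (-1.03 ± 0.15, adjusted p = 0.0024). Wnt7a, an epithelial signal needed for uterine patterning, had 45.2 and 37.3 against 3.89 and 4.06, with 3.48 and 4.77 under tamoxifen alone. Its log2 fold change was -3.08 ± 0.17 (adjusted p = 0.00011).

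Genes of the progesterone response, most of which need Pgr, moved both ways. Of 20 tested, 7 were higher and 8 lower, beside 15.7% and 37.5% of all genes. Indian hedgehog (Ihh), the epithelial signal to the stroma, had 26.1 and 17.9 FPKM with estradiol and 1.94 and 2.24 with the combination (log2 -2.87 ± 0.24), and the lipoxygenase Alox15 had 132 and 123 against 14.0 and 16.4. Alox15 was nevertheless above tamoxifen alone (3.24 and 5.08 FPKM) by 1.67 (adjusted p = 0.0072). Follistatin (Fst), which binds activin, had 4.34 and 3.56 with estradiol, 6.68 and 8.98 with tamoxifen and 49.3 and 53.5 with the combination. Its log2 difference was 3.41 ± 0.17 from estradiol and 2.58 (adjusted p = 0.0026) from tamoxifen. The transcriptional coregulator Cited2 had 15.2 and 13.0, then 31.2 and 61.8, then 125 and 129 FPKM in the same order, and the implantation cytokine Lif rose from 20.5 and 13.1 to 73.4 and 74.7.

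Proliferation genes were uniformly lower than with estradiol. All 30 mitosis genes and all 29 DNA replication genes passed as lower, with medians of -2.48 and -2.11 beside -0.26 over all genes, and leaving out any 1 library kept 29 of 30 and at least 27 of 29. Median-of-ratios scaling kept 29 of each. Topoisomerase Top2a, which untangles replicated chromosomes, had 46.5 and 53.5 FPKM with estradiol and 2.97 and 2.89 with the combination (log2 -3.69 ± 0.19, adjusted p = 8.9e-05). The cell cycle marker Mki67 had 16.6 and 30.4 against 0.911 and 1.13 (-3.54 ± 0.28, adjusted p = 0.00029). The helicase subunit Mcm5 had 41.0 and 49.4 against 3.37 and 2.83, and Uhrf1, which maintains DNA methylation at replication forks, 30.5 and 33.4 against 0.841 and 1.04. The smallest change of the mitosis list was that of the centromeric histone gene Cenpa, at -1.15, and those of the replication list included Pcna (-0.95) and Rrm1 (-0.92).

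Tamoxifen alone was also below estradiol in all 30 and all 29 of these genes, and the combination was lower still in 12 of the mitosis and 5 of the replication genes. Top2a stood at 8.196 and 5.601 FPKM with tamoxifen, 0.99 above the combination on the log2 scale (adjusted p = 0.025), and cyclin A2 (Ccna2) at 3.72 and 3.596 FPKM against 1.35 and 1.496. The corresponding difference of Mki67, -1.07, had an adjusted p of 0.059. The single vehicle library had a median of 1.10 over the mitosis genes on the log2(FPKM + 1) scale. The combination libraries had medians of 1.16 and 1.07, tamoxifen 1.82 and 2.02, and estradiol 3.81 and 3.68. For DNA replication the medians were 2.76 with vehicle, 1.98 and 1.93 with the combination and 4.12 and 3.92 with estradiol.

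Genes that set the entry into S phase moved with them. Of 19 G1 genes 13 were lower, among them E2f1 (-2.14), cyclin E1 (Ccne1, -1.72) and Cdk4 (-1.46), and 2 inhibitor genes were higher. Cdkn1a, which encodes the kinase inhibitor p21, had 17.7 and 11.7 FPKM with estradiol, 45.9 and 70.9 with tamoxifen and 95.1 and 101 with the combination (log2 2.69 ± 0.27). Cdkn2b, encoding the inhibitor p15, had 5.39 and 5.45 against 14.4 and 14.4. Other inhibitor genes went the other way, such as Cdkn2c at -1.66 and Cdkn1b at -0.69.

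Transcripts of ribosome production genes were lower in the same libraries. All 25 genes of ribosome biogenesis passed as lower, with a median of -1.53, and all 25 also passed under median-of-ratios and quantile scaling and without estradiol 2. Nop56, a core protein of the particles that methylate ribosomal RNA, had 38.7 and 41.7 FPKM with estradiol, 22.7 and 24.4 with tamoxifen and 9.75 and 10.1 with the combination. The decrease was 1.91 ± 0.13 on the log2 scale from estradiol (adjusted p = 0.00017), and the difference from tamoxifen alone was -1.17 (adjusted p = 0.0058). The nucleolar chaperone Nolc1 fell to 3.23 and 3.54 FPKM from 16.4 and 15.3, and Polr1a, the largest subunit of RNA polymerase I, changed by -2.29. In 11 of 25 genes the combination was lower than tamoxifen alone and in none higher. Here the median of the vehicle library, 3.68, lay between those of estradiol (4.06 and 4.09) and tamoxifen alone (3.23 and 3.28), and the combination had the lowest (2.61 and 2.596). That comparison with 1 vehicle library was not tested.

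**Figure D3:**
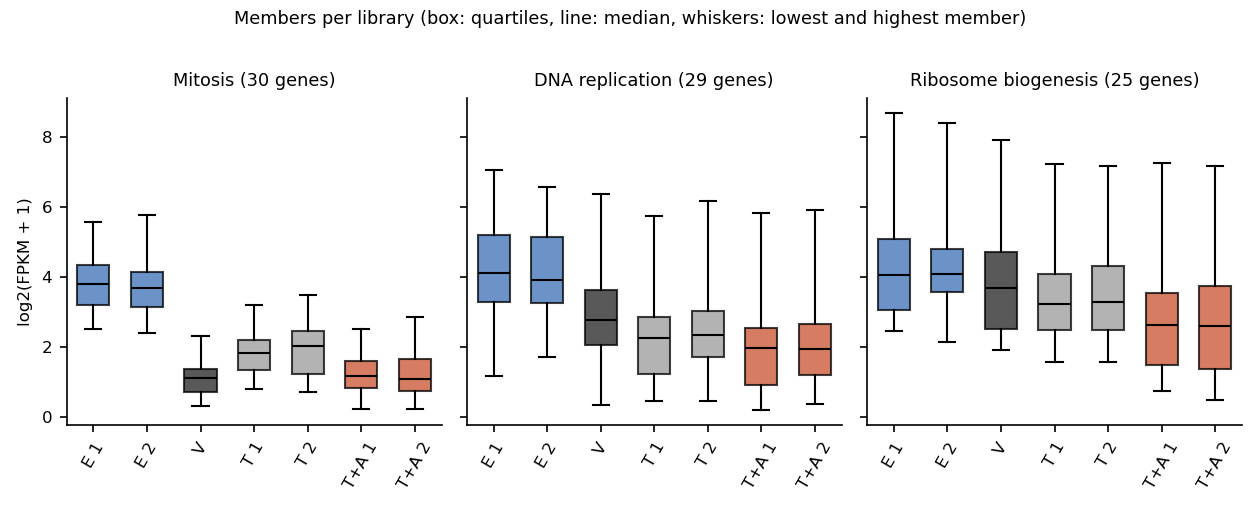
Distribution of log2(FPKM + 1) over the members of 3 lists in each library of estradiol (E), vehicle (V), tamoxifen (T) and tamoxifen plus alpelisib (T+A); boxes are quartiles over genes, lines medians and whiskers the lowest and highest member. Vehicle lies with the combination in mitosis (median 1.10 against 1.16 and 1.07) and between estradiol (4.06 and 4.09) and tamoxifen (3.23 and 3.28) in ribosome biogenesis, at 3.68.

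Transcripts of the PI3K pathway itself changed about as often as any others. Of 34 tested components 4 were higher and 12 lower, beside 53.2% called over all genes, with a median of -0.25 next to -0.26. Median-of-ratios scaling gave 6 and 7 with a median of 0.03, quantile normalization 5 and 6 with -0.05, and leaving out a combination library gave 1 higher and 6 or 7 lower. The drug target gene Pik3ca had 3.30 and 4.34 FPKM with estradiol and 3.04 and 2.97 with the combination, a difference of -0.26 ± 0.15 that did not pass (adjusted p = 0.20) and turned sign under both other scalings. Akt1 did not pass either, at 50.7 and 47.5 against 42.6 and 46.1 FPKM. Among the subunits, the regulatory subunit gene Pik3r3 had 10.5 and 13.6 with estradiol, 8.92 and 7.82 with tamoxifen and 3.47 and 3.66 with the combination (log2 -1.50 ± 0.16 from estradiol, adjusted p = 0.00073, and -1.03 from tamoxifen, adjusted p = 0.014).

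The other groups of the list moved both ways or little: 3 of 10 kinases were lower and none higher, and of 14 mTOR regulators 4 were higher and 4 lower, which fell to 1 and 1 without either combination library. Mtor had 4.22 and 4.19 FPKM with estradiol and 2.08 and 2.22 with the combination, a call lost under quantile normalization, and its scaffold Rptor changed by -1.11. Rheb, the small GTPase that activates mTOR, had 22.3 and 15.6 against 49.3 and 51.6 (log2 1.39 ± 0.22), and the translation repressor Eif4ebp1 rose by 1.25. The stress-induced mTOR inhibitor Ddit4 had 57.7 and 43.4 with estradiol, 165 and 240.3 with tamoxifen and 99.9 and 93.7 with the combination, above estradiol by 0.94 and below tamoxifen by 1.03 on the log2 scale (adjusted p = 0.041).

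Upstream of PI3K, 2 of 15 genes of the insulin and insulin-like growth factor axis were higher than with estradiol and 5 lower. These counts were near the 15.7% and 37.5% of all genes. Against tamoxifen alone 5 were higher and none lower. The median was -0.07, and 0.11 under median-of-ratios scaling, which gave 5 higher and 5 lower; without combination library 2 the counts were 2 and 3, and without estradiol 2 they were 4 and 5. The adaptor Irs1 had 8.31 and 10.4 FPKM with estradiol and 1.75 and 1.75 with the combination (-1.91 ± 0.15). The receptor Igf1r had 3.89 and 5.53, then 1.34 and 1.17 with tamoxifen, then 3.34 and 2.79 with the combination. It did not pass against estradiol (-0.48 ± 0.18, adjusted p = 0.061) and was above tamoxifen by 0.85 (adjusted p = 0.033). The adaptor Irs2, with 0.515 and 0.684 with estradiol and 0.962 and 0.913 with the combination, was likewise above tamoxifen only, by 0.70 (adjusted p = 0.023), and 0.28 ± 0.13 from estradiol (adjusted p = 0.11). The binding protein genes Igfbp2 and Igfbp3 were above both groups. Igfbp2 had 1.38 and 0.434 FPKM with estradiol, 0.324 and 1.26 with tamoxifen and 9.04 and 12.3 with the combination, a change of 2.64 ± 0.34 from estradiol.

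FOXO factors and their targets, which AKT restrains, were more often higher. Of 27 tested, 14 were higher than with estradiol and 6 lower, with a median of 0.40, and median-of-ratios scaling gave 18 and 3. Without a combination library the counts were 7 higher with 2 or 5 lower. Against tamoxifen alone, 13 were higher and none lower. Foxo1 itself had 9.70 and 11.2 FPKM with estradiol, 6.03 and 5.74 with tamoxifen and 13.9 and 14.3 with the combination. Its difference of 0.40 ± 0.13 from estradiol (adjusted p = 0.038) was lost when either combination library or estradiol 1 was left out and with a replicate block, while that from tamoxifen was 1.13 (adjusted p = 0.0064).

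The targets included regulators of metabolism, of the cell cycle and of autophagy. Pdk4, which restrains pyruvate oxidation, had 0.343 and 0.418 FPKM with estradiol, 0.0940 and 0.256 with tamoxifen and 2.07 and 1.94 with the combination. Cyclin G2 (Ccng2), which marks cells leaving the cycle, had 8.97 and 6.73, then 10.99 and 15.9, then 29.0 and 30.2 in the same order. Errfi1, an inhibitor of the EGF receptor, had 74.0 and 61.8, then 57.7 and 87.5, then 227 and 234. In all 3 genes both combination libraries lay above the 4 libraries of estradiol and tamoxifen, and each passed against both groups. In the single vehicle library Pdk4 had 2.702 FPKM, above the combination, and Ccng2 9.348, below it. The autophagy genes Bnip3, Map1lc3b and Gabarapl1 rose over estradiol by 1.66, 1.47 and 0.87. The 6 members that were lower were Pck1, Cdkn1b, Bcl6, Sesn3, Bcl2l11 and catalase (Cat, -1.18).

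The targets Txnip and Bcl2l11 went in opposite directions against estradiol and are shown because both carry the forkhead motif GTAAACA before their start sites. Txnip, which binds thioredoxin and limits glucose uptake, had 40.5 and 37.7 FPKM with estradiol, 105 and 140 with tamoxifen and 126 and 129 with the combination (log2 1.68 ± 0.18, adjusted p = 0.00075). Bcl2l11, encoding the death-promoting protein BIM, had 6.87 and 4.94, then 1.76 and 2.05, then 2.68 and 2.75 (-0.88 ± 0.17, adjusted p = 0.0059). The motif was searched on both strands in the RefSeq promoters of GRCm38.p6, from 250 bases before to 50 after each start, and it stands in capitals at 121 bases before the start of Txnip (shown: chr3:96557707-96557956, plus strand) and 227 before that of Bcl2l11 (chr2:128125788-128126037, plus strand). It occurred in a promoter of 4 of the 27 FOXO list genes with a promoter found, and in 3.65% of 32851 promoters (1199). The former counts genes and the latter promoters, so they are not comparable. The palindromic estrogen response element, GGTCA and TGACC with 3 bases between, occurred in 0.07% of all promoters. None of the 27 estrogen response genes with a promoter found had it. A match is a description of these letters only.
Txnip: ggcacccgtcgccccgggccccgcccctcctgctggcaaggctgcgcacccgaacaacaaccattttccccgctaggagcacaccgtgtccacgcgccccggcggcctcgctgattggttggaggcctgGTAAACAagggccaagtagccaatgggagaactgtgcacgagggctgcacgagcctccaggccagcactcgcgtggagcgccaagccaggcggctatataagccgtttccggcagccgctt
Bcl2l11: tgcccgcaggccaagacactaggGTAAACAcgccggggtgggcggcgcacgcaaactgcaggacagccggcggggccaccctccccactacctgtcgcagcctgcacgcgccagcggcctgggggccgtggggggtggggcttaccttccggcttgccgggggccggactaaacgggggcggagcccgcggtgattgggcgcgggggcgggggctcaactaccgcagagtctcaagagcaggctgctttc

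Sterol synthesis genes were lower with the combination than with estradiol or tamoxifen alone. Of 24 tested genes 16 were lower than with estradiol and none higher, with a median of -0.80. Against tamoxifen alone 17 were lower and none higher, whereas tamoxifen alone had 10 above and 4 below estradiol. Median-of-ratios scaling gave 2 higher and 14 lower. All 8 tested genes of the 9 listed in the mevalonate branch were lower, beside 37.5% of all genes. Of these, 6 passed as lower under median-of-ratios scaling, 6 under quantile normalization and 5 with no filter on low values. Squalene epoxidase (Sqle), a rate-limiting step, had 9.76 and 9.70 FPKM with estradiol, 12.04 and 12.5 with tamoxifen and 1.70 and 1.53 with the combination (log2 -2.04 ± 0.12, adjusted p = 0.00012, and -2.34 from tamoxifen, adjusted p = 0.0016). Isopentenyl diphosphate isomerase (Idi1) had 9.39 and 8.47, then 19.5 and 19.9, then 3.32 and 3.14. In both genes the order was tamoxifen, estradiol, combination, with no overlap between neighbouring groups.

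Insig1, which retains the sterol-sensing factor SREBP2 in the endoplasmic reticulum, had 12.4 and 11.7 FPKM with estradiol, 28.6 and 33.7 with tamoxifen and 13.96 and 14.5 with the combination, a difference of 0.22 from estradiol (adjusted p = 0.21) and -1.07 from tamoxifen. The methyl oxidase Msmo1 had 10.2 and 8.87, then 24.5 and 29.1, then 7.90 and 8.70. Both were high with tamoxifen alone, passed as lower than tamoxifen and did not pass against estradiol. The gene for SREBP2 itself, Srebf2, had 29.3 and 29.4 with estradiol and 13.3 and 13.6 with the combination. The sterol element TCACNCCAC occurred in a promoter of 1 of the 18 listed genes with a promoter found, and in 1.24% of all promoters. That gene was Hmgcs1, which was listed at 0 in every library.

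Fatty acid synthesis genes were also lower, 11 of 16 with 3 higher, but the decrease stood with tamoxifen alone as well (11 lower, 4 higher). Without combination library 1 the counts were 7 lower and 2 higher. The desaturase Scd2 had 157 and 143 FPKM with estradiol, 53.8 and 52.2 with tamoxifen and 29.1 and 29.4 with the combination (log2 -2.32 ± 0.14). Scd1 had 20.4 and 17.9 against 1.13 and 1.83 with the combination, fatty acid synthase (Fasn) 36.7 and 62.6 against 12.3 and 12.8, and acetyl-CoA carboxylase Acaca changed by -2.05. Acsl3, which activates fatty acids, rose instead, from 6.12 and 6.11 to 16.98 and 16.8. The gene of the controlling factor, Srebf1, did not pass.

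**Figure D4:**
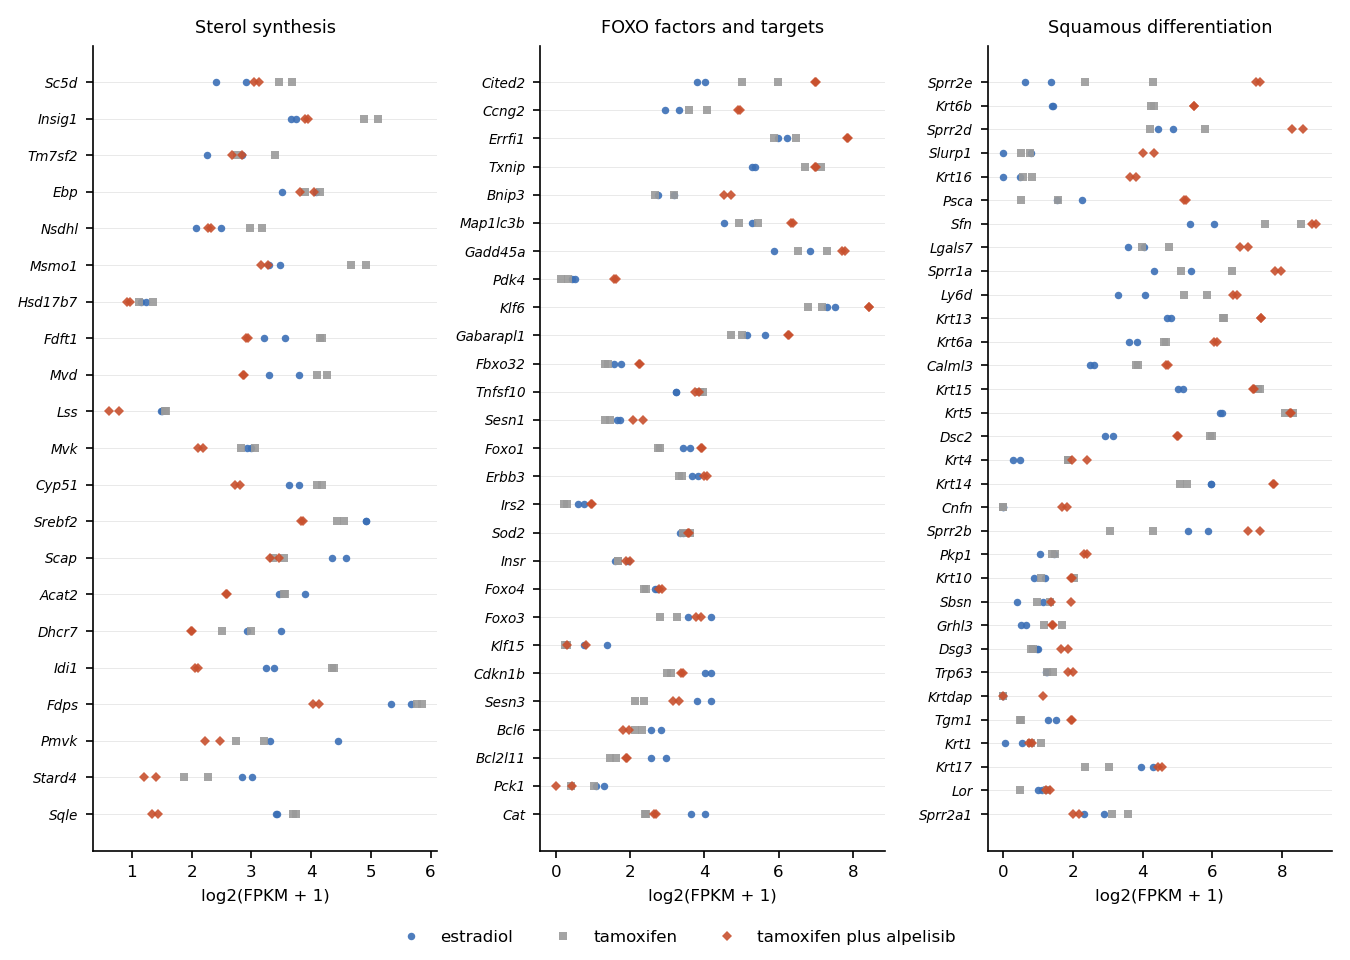
Log2(FPKM + 1) of tested members of 3 lists (sterol synthesis, of which 3 members are not shown, FOXO factors and targets, and squamous differentiation) in each library of estradiol, tamoxifen and tamoxifen plus alpelisib, with genes ordered by fold change against estradiol. Combination points lie left of both other groups for genes such as Sqle and Idi1, and right of both for Ccng2, Errfi1, Krt6b, Krt14 and Psca.

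Genes of stratified squamous epithelium, which the normal uterine lining does not form, were higher with the combination. Of 32 tested, 26 passed as higher and none as lower, with a median of 1.89, and 24 passed without estradiol 2. In the keratin group 9 of 11 were higher. Krt6b had 1.67 and 1.65 FPKM with estradiol, 19.0 and 17.8 with tamoxifen and 43.5 and 43.4 with the combination (log2 4.06 ± 0.12, adjusted p = 2.6e-05). Krt14, of basal cells, had 61.4 and 60.9, then 32.5 and 37.5, then 215 and 216, so it lay below estradiol with tamoxifen and above it with the combination (1.80 ± 0.14 from estradiol, adjusted p = 0.0003, and 2.59 from tamoxifen, adjusted p = 0.0016). Its partner Krt5 had 73.4 and 77.2, then 321 and 271, then 299.6 and 308, with a difference of 0.04 between the drug groups. The mucosal keratin Krt13 had 27.4 and 24.8, then 79.7 and 79.0, then 169 and 167.

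Envelope and surface genes followed. All 7 factors and surface proteins were higher, among them Psca, with 3.78 and 1.91 FPKM with estradiol, 0.408 and 1.96 with tamoxifen and 37.0 and 35.3 with the combination. Galectin 7 (Lgals7) rose from 15.4 and 10.9 to 110.1 and 129, and Sprr2d from 28.2 and 20.9 to 312 and 392. Trp63, the master factor of basal and squamous cells, was low but higher, at 1.40 and 1.35 against 2.65 and 2.99 FPKM (log2 0.68). Against tamoxifen alone 18 of the list were higher and 2 lower. Reads of the Sprr2 copies may be shared. The members Krt1, Krt17, Lor, Krtdap, Sbsn and Sprr2a1 did not pass.

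Simple epithelial genes were also more often higher than lower. Of 20, 9 were higher and 4 lower, with 14 and 2 under median-of-ratios scaling, 6 and 4 without estradiol 2, and 3 and 2 without either combination library. The ductal keratin Krt7 had 219 and 190.1 FPKM with estradiol and 739 and 800.3 with the combination (log2 1.91). The claudins of tight junctions moved apart: Cldn4 had 171 and 95.2 with estradiol, 213 and 479 with tamoxifen and 1110 and 1251 with the combination (3.20 ± 0.45), with 1442 in vehicle. Cldn1 had 24.1 and 24.6, then 0.587 and 0.750, then 5.46 and 6.398, below estradiol by 1.87 and above tamoxifen by 2.05 on the log2 scale.

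Neutrophil-attracting chemokines were among the genes that set the combination apart from both other groups. In the list of chemokines and the interleukin 1 family, 14 of 28 tested genes were higher than with estradiol and 3 lower. Of the 11 CXC chemokines 9 were higher and 1 lower, with a median of 2.45. Against tamoxifen alone 6 of the 11 were higher, among them Cxcl5, which was not above estradiol. Cxcl1 had 15.2 and 11.3 FPKM with estradiol, 27.8 and 64.0 with tamoxifen and 250.3 and 291 with the combination (log2 4.26 ± 0.38, adjusted p = 0.00041, and 2.65 from tamoxifen, adjusted p = 0.011). Cxcl2 had 11.1 and 7.07, then 7.16 and 16.1, then 120.0 and 132. Cxcl5 behaved differently, with 20.5 and 15.4 with estradiol, 0.498 and 0.786 with tamoxifen and 18.1 and 17.7 with the combination, so that it differed from tamoxifen by 3.53 and from estradiol by 0.01 (adjusted p = 0.97). Cxcl14 was lower, at 12.1 and 10.1 against 2.03 and 1.74. The interleukin 36 genes Il1f6 and Il1f9 rose by 1.67 and 2.43, while the signalling receptor Il1r1 had 14.6 and 15.3 FPKM with estradiol and 9.55 and 9.88 with the combination.

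Antimicrobial proteins were higher in 11 of 17 genes and lower in 2; the 17 hold the receptor gene Ltbr, which has no antimicrobial role and did not pass. S100a9, a subunit of calprotectin, had 2.07 and 0 FPKM with estradiol, 2.996 and 6.32 with tamoxifen and 40.2 and 43.2 with the combination (log2 4.61 ± 0.53). The lectin Reg3g had 0.198 and 0 against 10.3 and 9.69, and the protease inhibitor Slpi rose by 2.34. S100a8 and S100a9 are also neutrophil genes, and with the combination they made up nearly all of the summed neutrophil markers, which were 9.14 and 4.56 FPKM with estradiol and 49.0 and 52.6 with the combination. Their part in the antimicrobial count was not tested. Of 11 neutrophil markers 3 were tested and 2 were higher. The neutrophil genes Elane and Retnlg were at 0 in all 4 libraries, Mpo was at 0 in 3 and at 0.0242 FPKM in combination library 2, and Ly6g, at 4.11 and 0.545 against 1.53 and 1.70, did not pass.

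Immediate early genes, which ERK signalling induces, were higher too. Of 26 immediate early genes 19 were higher and none lower, with a median of 1.49. This count fell to 12 without estradiol 2 and to 11 without either library of the combination. Fosl1, an AP-1 subunit, had 5.13 and 2.85 FPKM with estradiol, 7.08 and 14.95 with tamoxifen and 63.9 and 67.5 with the combination (log2 3.78 ± 0.36). Phlda1 had 32.6 and 24.6, then 96.2 and 192, then 475 and 503. The ERK phosphatase Dusp5 had 37.9 and 29.2 with estradiol and 298 and 325 with the combination, and 5 of the 8 ERK feedback genes were also above tamoxifen alone. The founding members Fos (340.1 and 272 against 411 and 439) and Jun did not pass. In the single vehicle library Fosl1 had 83.5 and Dusp5 417 FPKM, above the combination. Of the EGF family 2 of 8 tested genes were higher, both among the 5 ligands: Hbegf had 45.1 and 38.3 with estradiol, 79.4 and 139 with tamoxifen and 321 and 334 with the combination (2.95 ± 0.28), and Areg 0.703 and 0.970 against 6.67 and 7.89. The receptors Egfr, Erbb2 and Erbb3 did not pass.

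Antigen presentation genes were lower with tamoxifen, alone or with alpelisib, than with estradiol. Of 12 class I genes 8 were lower and of 7 class II genes 6 were lower, with medians of -1.30 and -2.46, none higher, and the same counts without estradiol 2. The class II invariant chain Cd74 had 209 and 126 FPKM with estradiol, 9.32 and 11.4 with tamoxifen and 9.49 and 12.6 with the combination (log2 -3.77 ± 0.27, adjusted p = 0.00022). H2-Ab1 had 34.5 and 30.8 against 1.69 and 1.62 with the combination. The immunoproteasome subunit Psmb8 had 167 and 166 against 41.2 and 39.0, and the peptide transporter Tap1 changed by -1.88. The class I light chain B2m, at 881 and 507 against 508 and 513, did not pass. Class II genes summed to 314 and 200 FPKM with estradiol, 49.1 in the single vehicle library and 47.2 and 46.6 with the combination. Class I genes summed to 2793 and 1931, then 843, then 1478 and 1556 in the same order. No gene of either list passed between the drug groups. Macrophages, which also carry class II, had lower markers in the same libraries: 6 of 9 tested were lower and 1 higher. Csf1r had 4.27 and 4.19 FPKM with estradiol and 0.485 and 0.443 with the combination, C1qc 17.4 and 10.8 against 3.01 and 2.33, and Adgre1 3.32 and 2.36 against 0.449 and 0.241. The summed macrophage level was 167 and 102 against 135 and 134 FPKM, and its main member with the combination was Cd14, which was higher (67.1 and 50.7 against 102 and 104). Their part in the class II result was not tested.

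Interferon-induced genes did not stand out from the background: 4 of 30 were higher and 12 lower, beside 15.7% and 37.5% of all genes, with a median of -0.21 beside -0.26, and 8 higher and 7 lower with a median of 0.11 under median-of-ratios scaling. Without estradiol 2 the counts were 2 and 8, and without either combination library 2 and 5 or 7. Oasl1 had 11.4 and 6.17 FPKM with estradiol and 66.0 and 70.7 with the combination. The interferon gamma responsive GTPases Igtp and Gbp3 changed by -1.65 and -1.18, and Isg15 did not pass.

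Wnt signalling genes were lower, in 19 of 28 with 2 higher and a median of -1.05, and tamoxifen alone had 20 lower and 2 higher. The receptor Fzd10 had 23.9 and 25.9 FPKM with estradiol and 2.98 and 2.595 with the combination (log2 -2.77 ± 0.14). The feedback targets Notum (8.04 and 5.32 against 0.292 and 0.252) and Axin2 (7.08 and 5.27 against 1.81 and 1.67) were lower as well. The stem cell receptor Lgr5 had 1.90 and 1.98 against 0 and 0.0248. Wnt5b rose, from 1.68 and 0.414 to 11.6 and 11.9 FPKM (2.71 ± 0.29), as did the factor Tcf7. Against tamoxifen alone 1 gene of the list was higher and 1 lower.

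Matrix genes were lower in 22 of 34 with 5 higher; 3 were higher without estradiol 1 or without either combination library. Collagen Col14a1 had 8.79 and 10.7 FPKM with estradiol and 0.0668 and 0.152 with the combination (log2 -3.27 ± 0.14), Col1a1 14.99 and 18.7 against 2.19 and 2.23, and the membrane protease Mmp14 87.6 and 166 against 24.2 and 24.6. Periostin (Postn) rose, from 0.290 and 0.233 to 9.48 and 9.30, with 17.8 and 15.1 under tamoxifen alone, and so did the epithelial protease Mmp7 (64.8 and 39.2 against 144 and 162). Collagens and Postn are mostly made by stroma, and 5 of 13 tested stromal markers were lower and none higher, a share near the 37.5% of all genes, with a median of -0.25 beside -0.26. The stromal proteoglycan Dcn did not pass, and the part of stromal cells in the matrix counts was not tested.

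In the integrated stress response list 7 of 18 were lower, near the 37.5% of all genes, and 1 was higher. Phgdh, the first enzyme of serine synthesis, had 12.2 and 13.9 FPKM with estradiol and 0.859 and 0.792 with the combination (log2 -2.94 ± 0.16), and Psat1, Aldh18a1 and Mthfd2 changed by -2.53, -2.30 and -2.21. Atf4, the factor that induces these enzymes, was the member that rose, from 56.2 and 28.3 to 167 and 175. Polyamine genes moved at both ends: spermidine synthase Srm had 19.3 and 15.6 with estradiol, 15.4 and 20.2 with tamoxifen and 4.16 and 3.97 with the combination, whereas the diamine oxidase Aoc1 had 16.7 and 17.3, then 613 and 644, then 380 and 401. Glycolysis split evenly, with 5 of 20 higher and 5 lower (9 and 5 under median-of-ratios scaling, 4 and 3 without either combination library). Over all genes 15.7% were higher and 37.5% lower. The glucose transporter Slc2a1 had 32.0 and 22.4 FPKM against 132 and 137, and the hexokinase Hk1 21.9 and 21.1 against 3.64 and 3.34. Pfkfb3, which drives flux through phosphofructokinase, had 22.2 and 20.7 against 2.41 and 2.27. The chaperone gene Hspa5 of the endoplasmic reticulum had 309 and 209 against 678 and 705, and 7 of 20 genes of its list were higher and 4 lower, with 3 and 2 without either combination library.

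**Figure D5:**
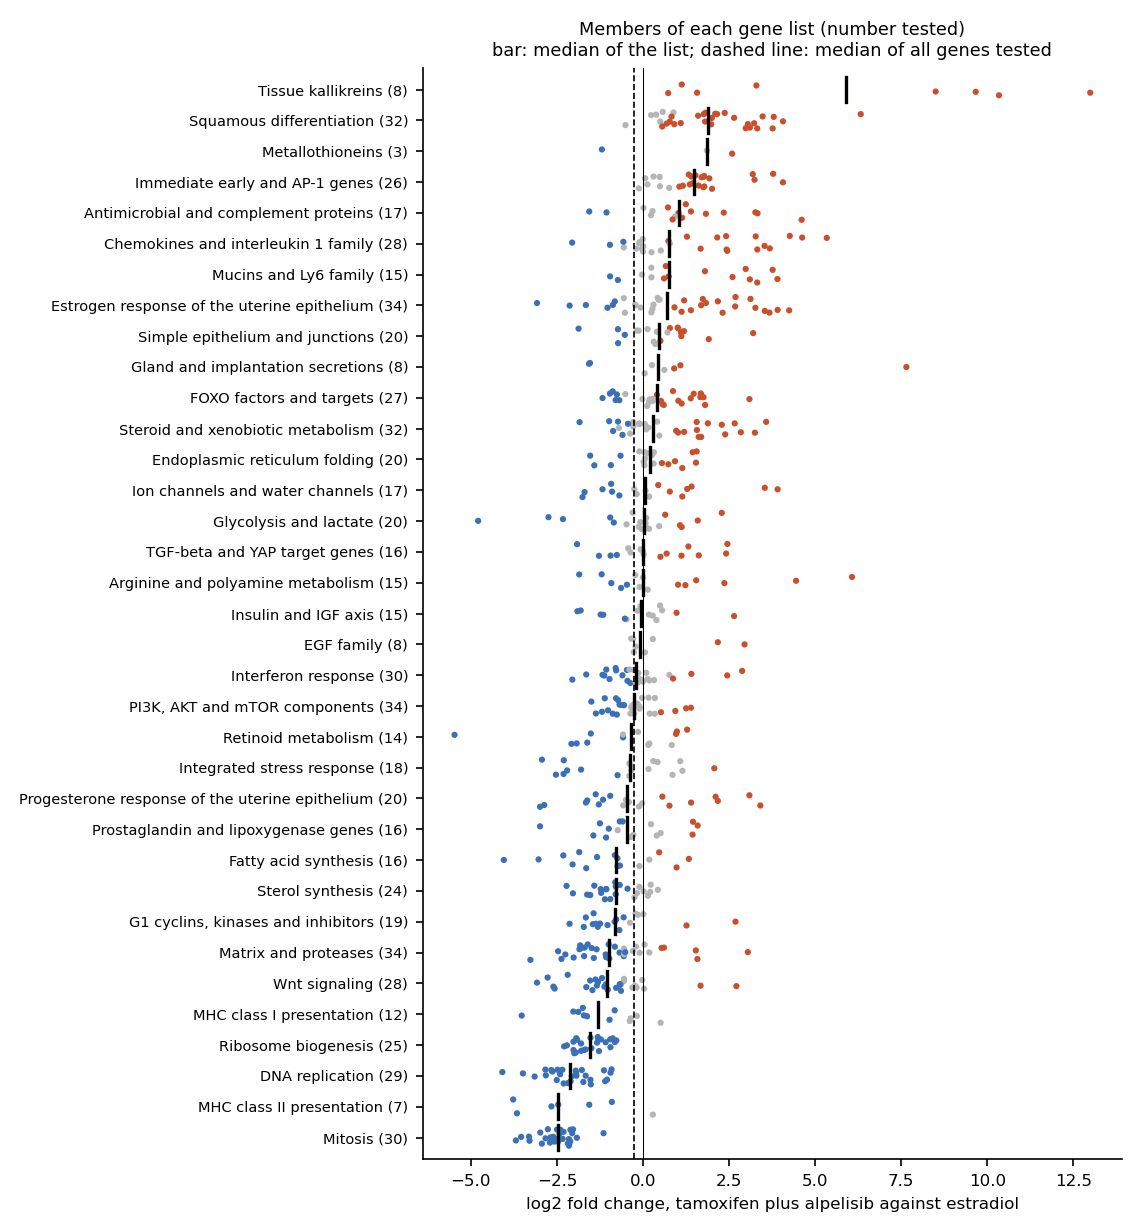
Log2 fold change, tamoxifen plus alpelisib against estradiol, of each tested member of the gene lists, with the number tested in parentheses; orange passed as higher, blue as lower, grey did not pass, the bar is the list's median and the dashed line the median of all genes (-0.26). Mitosis, DNA replication and ribosome biogenesis lie wholly on the lower side, and the kallikreins and nearly all squamous genes on the higher side.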

How the data were processed

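The deposited values are FPKM per gene, made by the authors with CASAVA, Bowtie and Cufflinks, per the submitters' processing notes, which give no versions. The only build named there is hg19, a human one, while the symbols are those of mouse genes, so no position is taken from the files; 24249 of 24353 symbols matched mouse RefSeq, 27 names had turned into dates, and 6155 genes were at 0 in every library. The sources used here do not say how near-identical copies were handled.

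As the values are not counts, limma-trend was run on log2(FPKM + 1) for the 12314 genes with at least 1 FPKM in at least 1 library. A model of 4 group means over 7 libraries left 3 residual degrees of freedom plus 3.27 from the prior. The Benjamini-Hochberg threshold was 0.05 within each comparison. Genes named are the 15 highest and 15 lowest called genes with a mean of at least 5 FPKM in the higher group, no overlap and the same sign under median-of-ratios scaling, without predicted models, pseudogenes, histones, date-like names or Rn45s (not all are given). To these come up to 4 members of lowest p per list and a set of 10 genes given whatever their value; further members were chosen after their values were seen. The comparison and the gene lists were chosen with earlier results of these data known. Alternatives were other scalings, filters and pseudocounts, a replicate block and each library left out. The mouse numbers did not pair the groups: correlations of same-numbered deviations were -0.40, -0.18 and 0.27. The method was tested on simulated data. The fits were made with limma 3.58.1 in R 4.3.3; tables and figures with pandas 2.3.3, numpy 2.4.6 and matplotlib 3.10.9 in Python 3.11.15. Values of a few genes are not reported here.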

Additional observations from a re-analysis of the deposited data

How the results depend on the processing

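The count of 6548 genes between the combination and estradiol lay between 3871 and 6614 when 1 library was left out, and was 3871 without combination library 1 and 3936 without library 2. The other alternatives gave 5772 to 6523 genes, the lowest with a replicate block (1662 higher, 4110 lower). The count of 1445 against tamoxifen alone was 870 with no filter, 603 with a replicate block, and 14 to 692 with 1 library left out. The count of 5977 between tamoxifen alone and estradiol was 4326 to 6090 with 1 library left out and 5043 with the replicate block. The sign turned under median-of-ratios scaling for Pik3ca (0.0234) and Erbb2 (0.0585), and under quantile normalization for Pik3ca (0.12), Ltf (-0.30) and Nrg4 (0.0037); none of these was called, and Ltf passed as higher under median-of-ratios scaling (0.64). Over the 170 called genes named or listed for naming, 2017 values kept their side of the threshold and 19 lost it, among them those of Esr1, Foxo1, Rmrp, Mtor, Mt1 and Mt3. The causes were not tested. Depth limits genes under 1 FPKM, and 2 libraries a group limit every test.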

Other observations

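Steroid and xenobiotic enzymes were higher than with estradiol in 14 of 32 tested genes and lower in 6, or 3 and 2 lower without combination library 1 or 2. Hsd17b2, which oxidizes estradiol to estrone, had 0.456 and 0.807 FPKM with estradiol, 22.8 and 35.3 with tamoxifen and 19.6 and 17.2 with the combination (log2 3.58 ± 0.23). The aldehyde dehydrogenase Aldh3a1 had 0.893 and 1.31 against 19.0 and 18.8, and the steroid hydroxylase Cyp21a1 11.7 and 11.3 against 76.8 and 79.6. Retinoid genes were lower in 6 of 14 and higher in 3, near the 37.5% and 15.7% of all genes. The retinal dehydrogenase Aldh1a1 changed by -1.93, and Crabp2 had 16.0 and 10.2 FPKM with estradiol, 85.7 and 123 with tamoxifen and 25.8 and 26.6 with the combination.

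Targets of TGF-beta and YAP signalling were higher in 7 of 16 genes and lower in 4, beside 15.7% and 37.5% of all genes. Against tamoxifen alone 9 were higher and none lower, beside 11.7% called over all genes. Without combination library 2 fewer of them passed against estradiol. Ctgf had 13.8 and 9.71 FPKM with estradiol, 3.66 and 7.58 with tamoxifen and 64.7 and 67.4 with the combination, and Tgfbi 32.9 and 37.3 with estradiol against 8.28 and 8.81 with the combination. In the single vehicle library Ctgf had 258.8 and Tgfbi 519.9 FPKM, both above the combination. Prostaglandin genes were lower in 7 of 16 and higher in 3, near the 37.5% and 15.7% of all genes. Median-of-ratios scaling gave 5 lower and 6 higher. The inducible cyclooxygenase Ptgs2 had 11.2 and 11.1 against 33.8 and 37.2 FPKM, while the constitutive Ptgs1 changed by -1.44. The Ly6 family member Plaur, the urokinase receptor, had 10.96 and 5.19 against 120.1 and 136, and its ligand Plau rose by 1.53. The summed erythroid markers, mainly globins whose copies may share reads, were 73.6 and 109 FPKM with estradiol, 1239 and 938 with tamoxifen and 237 and 262 with the combination; 1 of the 4 tested passed against estradiol. Metallothionein Mt1 spread widely within groups, at 304 and 113 with estradiol, 122 and 661 with tamoxifen and 989 and 1264 with the combination. Its call (2.59 ± 0.83, adjusted p = 0.038) was lost without estradiol 2 and without either combination library. It was also lost with a replicate block and with no filter on low values.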
